A study of Mus musculus with 15 samples.

Results

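The proteasome subunit genes were followed in cultured cells, labelled as B-cells, from tumor-burdened spleens of leukemic mice, across 2 genotypes and 2 treatments. Members were the protein-coding genes whose symbol begins with Psma to Psmg and a digit, and the same 49 were found in both expression tables, among 16470 genes in the table of vehicle-treated cells and 16428 in that of ibrutinib-treated cells. All mice were C57Bl/6 and carried the Em-TCL transgene (TCL1), in which the Eμ enhancer drives the TCL1 oncogene in B cells, and the second genotype also carried 1 mutant p53 allele, p53R172H/+. Cells were released from the spleens by mechanical disruption and cultured for 24 h with the vehicle DMSO (3 TCL1 and 5 TCL1;p53R172H/+ libraries) or with 5 µM ibrutinib, an inhibitor of the B-cell kinase BTK (3 and 4 libraries). Spleens hold other cells beside the leukemia, and nothing in the labels ties a replicate number to one animal, so p-values measure the spread between these libraries.

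The proteasome degrades proteins tagged with ubiquitin. Its 20S core is a stack of rings in which alpha subunits form the gate and beta subunits hold the proteolytic sites, and the 19S regulatory particle recognises, unfolds and feeds in the substrate. Lymphocytes and cells exposed to interferon exchange the constitutive catalytic subunits Psmb5, Psmb6 and Psmb7 for the immunoproteasome subunits Psmb8, Psmb9 and Psmb10, and PA28 (Psme1 and Psme2) caps the core, which together favor peptides for MHC class I. The 49 members comprised 7 alpha and 7 constitutive beta genes, the 3 immunoproteasome genes, 6 ATPase and 11 non-ATPase genes of the 19S particle, 7 assembly chaperones and 6 activators and inhibitors. The testis alpha gene Psma8 and Psmc3ip, which shares the symbol but encodes a recombination factor, made up the rest, and the thymic Psmb11 was not listed.

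Several members share 50% or more of their transcript with a near-identical copy elsewhere in the genome, so their values are uncertain. The clearest was Psme2, the beta subunit of PA28, of whose transcript 82.5% is found in the copy Psme2b. The tables listed a mean value of 139.9 for Psme2b and 8.6 for Psme2 in DMSO, and 65.1 and 4.33 in ibrutinib. Values were read counts scaled to effective library size. Psme2 held between 4.72% and 8.05% of the summed value of the pair in every library.

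A like split was seen for Psma5, an alpha-ring gene. Its pseudogene Gm8394 on chr10 aligned to 723 coding bases with 8 mismatches, and coding bases 405 to 644 (chr3:108268038-108272373 in Psma5, across introns, and chr10:85313973-85314212 in Gm8394, both on the plus strand) are shown because so few bases tell the pair apart (GENCODE M21 transcripts on GRCm38, capitals mark the differing bases).
Psma5: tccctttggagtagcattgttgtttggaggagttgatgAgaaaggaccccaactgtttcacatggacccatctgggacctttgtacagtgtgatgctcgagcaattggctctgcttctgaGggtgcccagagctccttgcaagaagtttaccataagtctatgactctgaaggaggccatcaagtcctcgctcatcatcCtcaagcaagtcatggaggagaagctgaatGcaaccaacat
Gm8394: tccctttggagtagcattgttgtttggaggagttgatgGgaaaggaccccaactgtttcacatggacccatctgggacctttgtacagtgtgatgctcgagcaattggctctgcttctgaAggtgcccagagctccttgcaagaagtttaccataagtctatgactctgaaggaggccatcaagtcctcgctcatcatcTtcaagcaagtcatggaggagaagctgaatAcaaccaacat
The pseudogenes of Psma5 took 76.8% of the value of gene and copies together in DMSO and 74.1% in ibrutinib. Counting copies over at least 50% of the transcript, the shares in DMSO were 48.3% for the beta gene Psmb3, 34.6% for Psma4 and 14% for the base scaffold Psmd2. The non-ATPase gene Psmd11 also has such a copy, A730017L22Rik, over 52.7% of its transcript. The mean of this copy was 13.81 in DMSO, and that of Psmd11 was 34.1 in TCL1 and 43.3 in TCL1;p53R172H/+. Within A730017L22Rik, on the opposite strand, lies the pseudogene Gm14048, a copy of 44.6% of the Psmd11 transcript. Gm14048 had a mean of 20.04 in DMSO and 13.44 in ibrutinib. Copies of Psmb5 and of the ATPase gene Psmc1 covered 88.4% and 82.0% of their transcripts, and the copies of that extent (Gm3375 and AC110212.1) were not among the genes of the tables. A shorter copy of Psmc1, Gm9575, covers 45.8% of its transcript and had a mean of 6.95 in DMSO and 4.01 in ibrutinib. Per kb of exon, the 7 genes of the 20S core or 19S particle with a copy over at least 50% of the transcript had a median value of 16.6 in DMSO, and the 24 without had a median of 30.7. The ranges overlapped, from 6.25 to 24.3 against 6.56 to 52.7. The lowest of the 24 was Psma3, which has a shorter copy, the pseudogene Gm13835, identical over 665 bases (23.4% of the transcript). Gm13835 had a mean of 72.33 in DMSO and 45.06 in ibrutinib. Psma3 itself ran from 21.2 to 30.9 in TCL1 and from 20.4 to 31.6 in TCL1;p53R172H/+ in DMSO, so its value is uncertain as well.

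**Figure D1:**
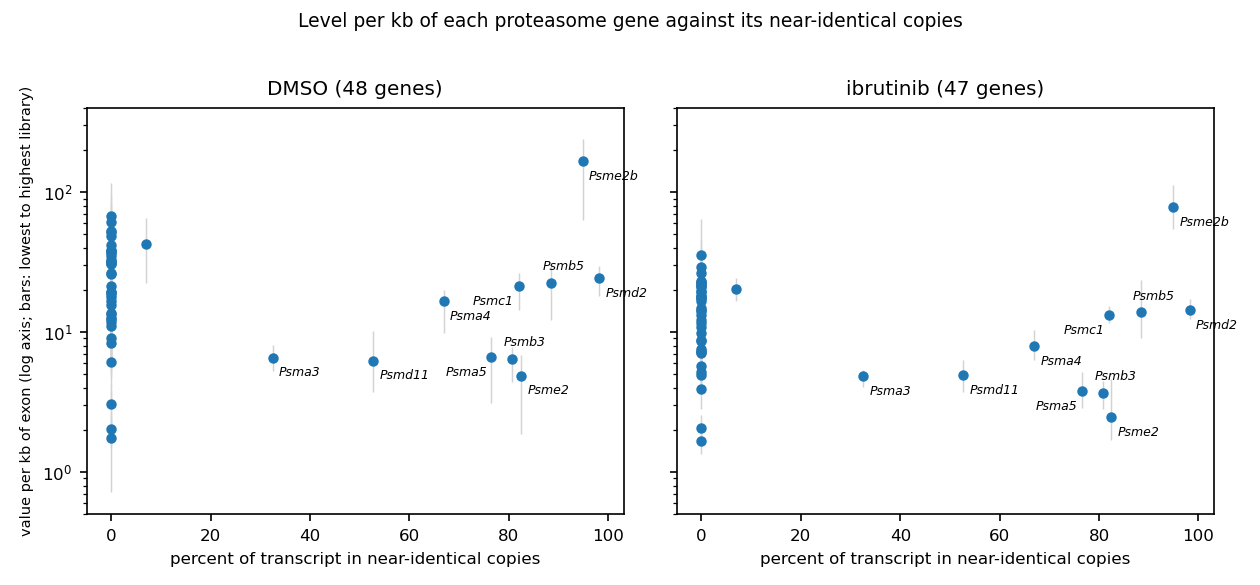
Mean value per kb of exon (log axis, bars from the lowest to the highest library) against the percent of each gene's transcript found in near-identical copies, in DMSO (left) and ibrutinib (right); genes with a mean under 1 per kb are not drawn. Psme2 sits at 4.88 and its copy Psme2b at 167.1 per kb in DMSO.

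The libraries differed in their makeup before any comparison. Summed values of 6 B-cell marker genes were between 188.3 and 393.8 in 3 DMSO libraries (TCL1 replicate 2 and TCL1;p53R172H/+ replicates 1 and 2) and between 2873.3 and 5471.0 in the other 5. In ibrutinib, TCL1 replicate 1 (312.2) and TCL1;p53R172H/+ replicate 1 (45.0) were lowest, and the other 5 ranged from 489.3 to 3165.0. The 3 low TCL1;p53R172H/+ libraries had the highest sums of 7 T-cell markers (2142.7 and 2597.8 in DMSO and 1505.9 in ibrutinib, against 153.1 to 884.6 elsewhere), and the 2 low TCL1 libraries the highest sums of 8 myeloid (28510.8 and 19707.2) and 6 erythroid markers (15273.9 and 13193.7). In these 5 libraries the B-cell label was thus not borne out by its markers. TCL1;p53R172H/+ replicate 3 in ibrutinib, which is not among them, had a B-cell sum of 489.3. Its T-cell and myeloid sums were 884.6 and 1157.7, so its label is uncertain too. Mitochondrial transcripts took 4.42% to 25.7% of the summed value in DMSO and 6.29% to 43.7% in ibrutinib. Xist, an RNA of female cells, was over 100 in 3 of 3 TCL1 libraries in each treatment. In TCL1;p53R172H/+ it was so in 2 of 5 libraries in DMSO and 1 of 4 in ibrutinib. Sex was thus not balanced between genotypes, and its part in the genotype differences was not tested. The results that rest on the 5 libraries are given with and without them, a choice made after the data were seen, and in such bulk samples fewer cells of a type and less RNA per cell cannot be told apart.

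Summed over the 49 genes, the value per library ran from 1961.1 to 3573.5 in DMSO and from 1623.1 to 2057.9 in ibrutinib, which was 0.171% to 0.401% and 0.127% to 0.264% of all values in the tables. Leaving out mitochondrial transcripts, the shares were 0.230% to 0.431% and 0.220% to 0.286%. Per kb of exon and leaving aside Psme2b, the highest means in DMSO were those of Psme1 (67.8, lowest library 21.5, highest 115.3) and Psmb8 (61.5, from 18.4 to 96.2), followed by the alpha gene Psma6 (52.7, from 39.5 to 63.2). Their ranges overlapped, so this order was not separated beyond the spread. At the low end, the chaperone gene Psmd9 had 2.02 and Psmc3ip 1.76 per kb, and Psma8 was at 0 in 6 of 8 DMSO libraries and 1.5 at most. Between libraries, the SD of log2 values had a median of 0.43 over the 47 members with a mean of at least 5 in DMSO and 0.21 over 46 in ibrutinib, against 0.51 and 0.38 over all genes at that level. The 4 genes with the widest spread in DMSO were Psmb9 (highest library 7.53 times the lowest), Psmb10 (4.29), Psme1 (5.36) and Psmb8 (5.22), all of the immunoproteasome and PA28. In ibrutinib the same 4 genes followed Psmd14, the deubiquitinase of the 19S lid (3.39 times). These 5 were named here after their values were seen.

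The comparison of genotypes in DMSO asked whether the mutant p53 allele went with other levels of proteasome transcripts. None of the 49 genes passed the threshold (limma on log2 of the value plus 1, adjusted p under 0.05), and 0 had an unadjusted p under 0.05, where 0.0121% and 8.17% of all genes did. The estimates leaned upward: 40 were higher and 9 lower in TCL1;p53R172H/+, with a median log2 difference of 0.15. Over all genes the median was 0.04, and over the 10774 genes with a mean of at least 5 it was 0.10. By role, the medians were 0.04 for alpha genes (5 of 7 higher), 0.11 for constitutive beta genes (6 of 7), 0.24 for ATPase genes (6 of 6), 0.29 for non-ATPase genes (8 of 11), 0.23 for chaperones (7 of 7) and 0.23 for activators and inhibitors (5 of 6). Without TCL1 replicate 2 alone, the median over the 49 genes was -0.10, and without all 5 libraries low in B-cell markers it was 0.10, so its sign changed with the libraries kept.

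The catalytic pairs showed wide spread within each genotype. Psmb5, which carries the chymotrypsin-like site, was at 17, 19.6 and 27.9 in TCL1 replicates 2, 3 and 4 and at 15.3, 11, 19.3, 27.6 and 24.4 in TCL1;p53R172H/+ replicates 1 to 5. Its immunoproteasome counterpart Psmb8 was at 62.3, 325.2 and 202.7 in TCL1 and at 278.1, 214.6, 216.1, 134.8 and 229.4 in TCL1;p53R172H/+. For both genes the genotypes overlapped, and TCL1 replicate 2 was the lowest library for Psmb8. The log2 difference was -0.17 ± 0.34 (SE, limma adjusted p = 0.869) for Psmb5 and 0.38 ± 0.50 (adjusted p = 0.796) for Psmb8.

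Psmb6, with the caspase-like site, was at 42.9, 86.6 and 81.1 in TCL1 and at 62.1, 53.8, 76.5, 85.2 and 77.6 in TCL1;p53R172H/+. Psmb9, which replaces it and whose exons overlap those of the peptide transporter gene Tap1 on the opposite strand, was at 25.7, 193.5 and 113.0 in TCL1 and at 122.7, 107.0, 73.2, 51.9 and 84.1 in TCL1;p53R172H/+. TCL1 held both the highest and the lowest Psmb9 value, and the log2 differences were 0.06 ± 0.28 for Psmb6 (limma adjusted p = 0.949) and 0.02 ± 0.60 for Psmb9 (adjusted p = 0.992). Psmb8 and Psmb9 lie near each other in the MHC on chr17:34197721-34201454 (plus strand) and chr17:34181987-34187764 (minus strand). Exons of Psmb8 and Psmb7 also overlap a gene on the opposite strand (Gm20496 and Nek6), and unless counting used strand the reads of such a pair cannot be told apart.

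Psmb7, with the trypsin-like site, was at 32.0, 54.1 and 67.0 in TCL1 and at 35.4, 35.9, 74.0, 56.1 and 73.7 in TCL1;p53R172H/+. Psmb10, its counterpart on chr8:105935735-105938444, was at 25.2, 75.5 and 85.7 in TCL1 and at 105.9, 108.2, 32.3, 34.5 and 38.4 in TCL1;p53R172H/+. The 2 TCL1;p53R172H/+ libraries highest for Psmb10 were those with the most T-cell marker reads, and the other 3 lay under TCL1 replicates 3 and 4. Over all libraries the log2 differences were 0.10 ± 0.36 for Psmb7 (limma adjusted p = 0.936) and 0.00 ± 0.57 for Psmb10 (adjusted p = 0.999).

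**Figure D2:**
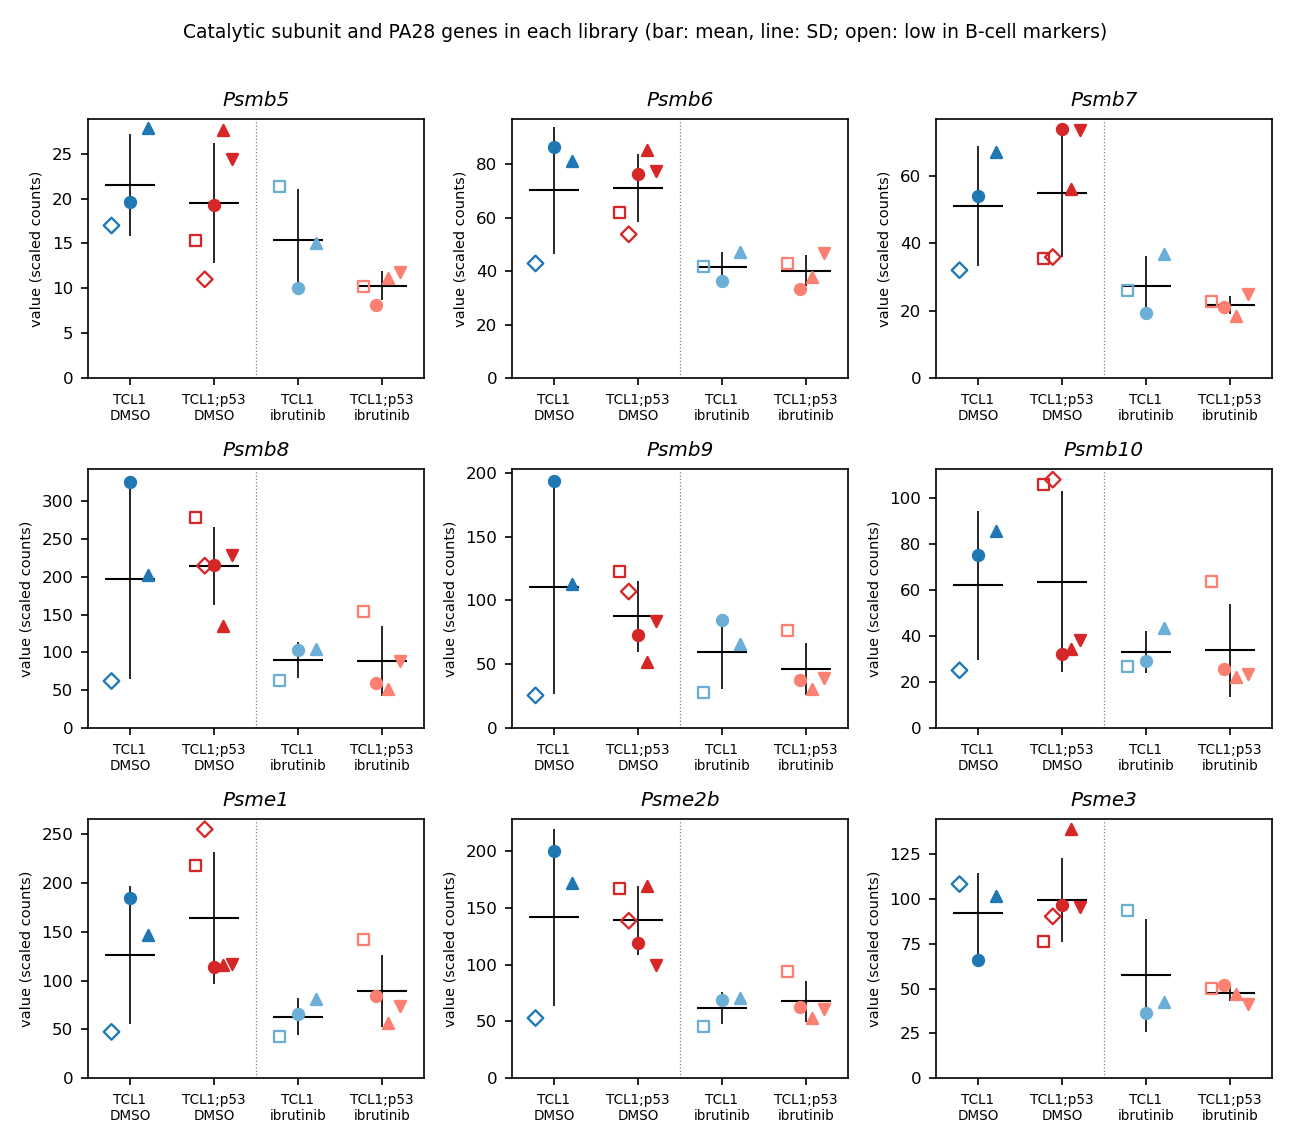
Value of each catalytic subunit and PA28 gene in every library (vertical axis, scaled counts from 0), by genotype and treatment; marker shape is the replicate number, open markers are the 5 libraries low in B-cell markers, bars are means and lines SDs. The tables left and right of the dotted line were scaled separately. The open squares and diamonds of TCL1;p53R172H/+ stand highest for Psmb10, at 105.9 and 108.2 in DMSO and 63.9 in ibrutinib.

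Without the 5 libraries low in B-cell markers, all 3 immunoproteasome genes were lower in TCL1;p53R172H/+ in both tables, and none passed the threshold. In DMSO, with 2 TCL1 and 3 TCL1;p53R172H/+ libraries left, the log2 differences were -1.18 ± 0.14 for Psmb10 (limma adjusted p = 0.0853, range over its 17 alternatives 0.0853 to 1), -1.10 ± 0.33 for Psmb9 (adjusted p = 0.226, range 0.182 to 0.998) and -0.44 ± 0.34 for Psmb8 (adjusted p = 0.567, range 0.497 to 0.917). In ibrutinib, with 2 and 3 left, they were -0.57 ± 0.22 for Psmb10 (adjusted p = 0.272, range over 16 alternatives 0.272 to 0.999), -1.04 ± 0.19 for Psmb9 (adjusted p = 0.112, range 0.112 to 0.989) and -0.67 ± 0.25 for Psmb8 (adjusted p = 0.266, range 0.266 to 1). In these subsets 7 of the 49 genes in DMSO and 5 in ibrutinib had an unadjusted p under 0.05, where 17.1% and 17.7% of all genes did. The libraries kept in ibrutinib still differed in makeup. Their B-cell marker sums were 3165.0 and 2437.8 in TCL1 and 489.3, 1291.4 and 1098.4 in TCL1;p53R172H/+. Their T-cell marker sums were 167.8 and 480.6 against 884.6, 472.2 and 682.9. The part of cell makeup in these differences was not tested.

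The PA28 genes overlapped between genotypes as well. Psme1, its alpha subunit, was at 47.5, 184.6 and 146.4 in TCL1 and at 218.1, 254.7, 113.7, 116.0 and 117.1 in TCL1;p53R172H/+, highest in the 2 libraries rich in T-cell markers and lowest in the one rich in myeloid markers. The log2 difference was 0.49 ± 0.49 (limma adjusted p = 0.727) and became -0.50 ± 0.14 without the 5 libraries. Psme2 was at 3.3, 10.1 and 9.4 in TCL1 and at 11.8, 12.1, 5.9, 10.5 and 5.7 in TCL1;p53R172H/+ (log2 difference 0.30 ± 0.43, adjusted p = 0.811). Psme2b, through which most reads of the pair were listed, was at 53, 200 and 171.6 in TCL1 and at 167.2, 138.6, 119.2, 169.4 and 100 in TCL1;p53R172H/+. Psme3, which forms a separate nuclear cap, was at 108.3, 65.9 and 101.6 against 76.1, 90.3, 96.6, 139.0 and 95.7 (log2 difference 0.12 ± 0.26, adjusted p = 0.881).

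Beyond these, 3 genes led those higher in TCL1;p53R172H/+ by p-value. Psmf1, which encodes the inhibitor PI31, was at 30.6, 34.3 and 32.9 in TCL1 and at 42.3, 39.2, 47.4, 39.4 and 49.2 in TCL1;p53R172H/+, the only member whose genotypes did not overlap upward (1 of 49, against 3.52% of all genes; 0 of 49 did so downward, against 2.93%). Its log2 difference was 0.40 ± 0.18 (limma adjusted p = 0.617), and it stayed between 0.35 and 0.46 over its 17 alternatives, the removal of each library in turn among them. The chaperone gene Psmg2 (0.48 ± 0.26, adjusted p = 0.645) and the ATPase gene Psmc4 (0.53 ± 0.31, adjusted p = 0.645) had larger estimates with overlapping genotypes. Psmc4 ran from 40.2 to 76.5 in TCL1 and from 59.8 to 114.7 in TCL1;p53R172H/+.

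Among genes lower in TCL1;p53R172H/+, Psme4 (the nuclear activator PA200) came first, at 173.1, 113.7 and 130.6 in TCL1 and 122.9, 124.6, 104.5, 99.2 and 54.9 in TCL1;p53R172H/+ (log2 difference -0.49 ± 0.30, limma adjusted p = 0.645). Psma8 followed only through TCL1 replicate 2, with a value of 1.5 where its other DMSO libraries were at 0 or 0.1. Psmd14 on chr2:61711694-61800376 was at 45.8, 152.4 and 136.2 in TCL1 and at 54.5, 59.8, 89.1, 86.3 and 65.0 in TCL1;p53R172H/+, so TCL1 replicates 3 and 4 stood above every other library. The log2 difference was -0.50 ± 0.40 (adjusted p = 0.678) and -1.04 ± 0.24 without TCL1 replicate 2 (adjusted p = 0.231, range over 17 alternatives 0.0521 to 0.899).

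**Figure D3:**
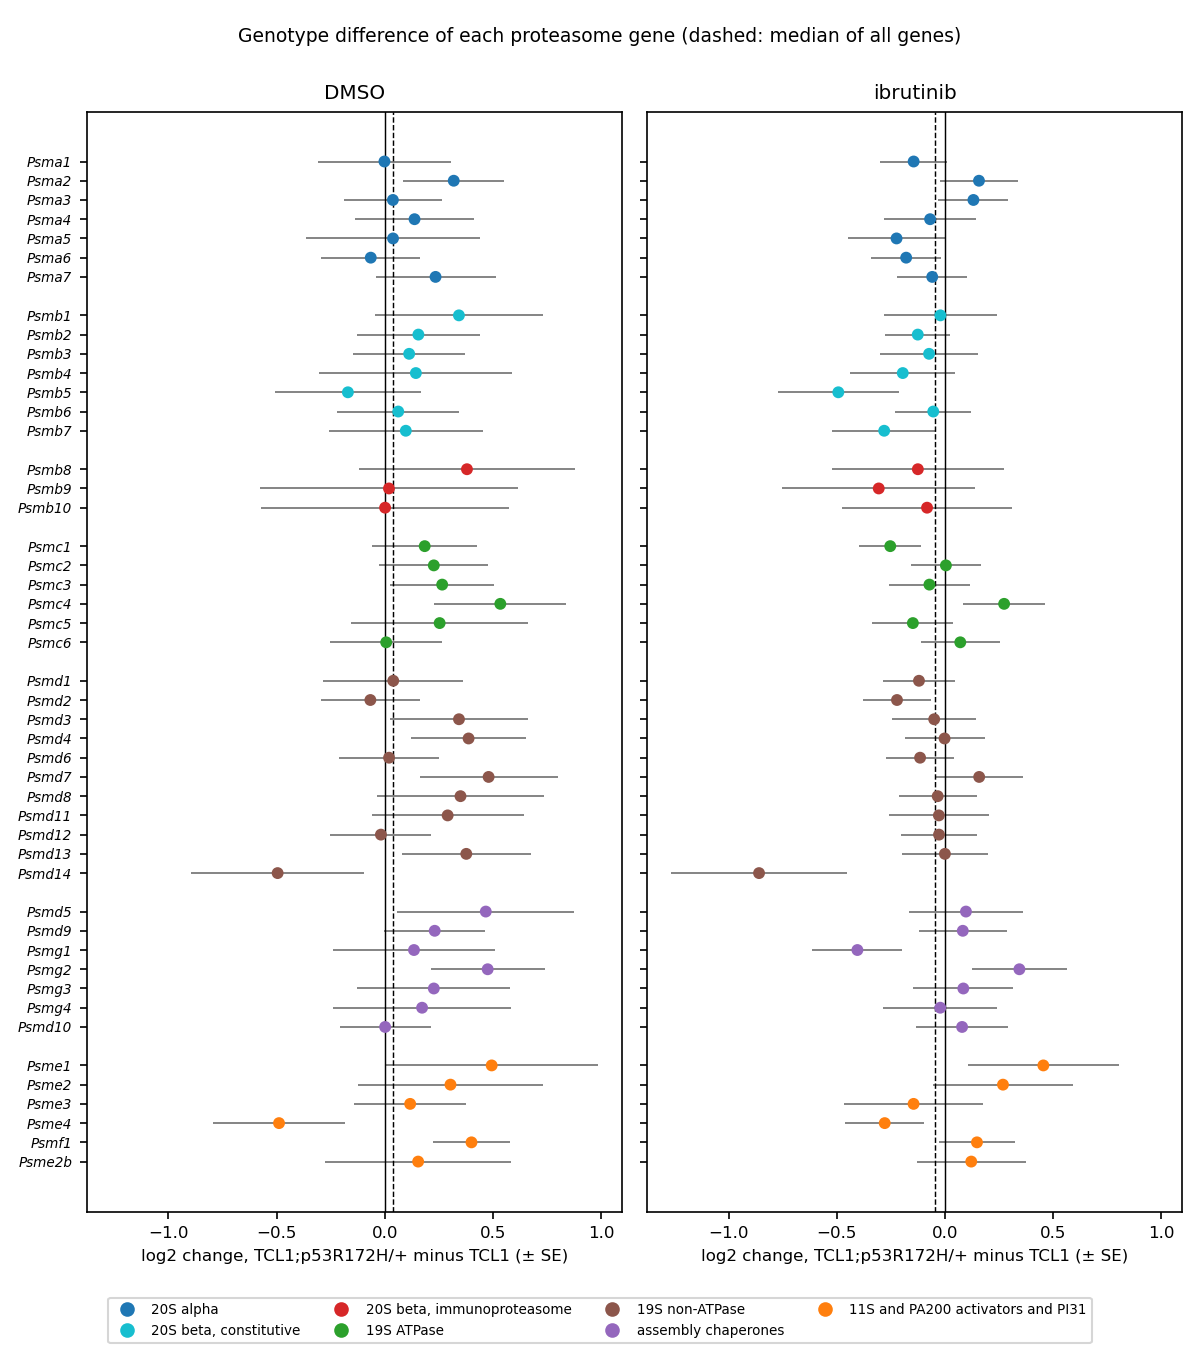
Log2 difference between genotypes, TCL1;p53R172H/+ minus TCL1, with its SE for the 47 members that fall in a role, colored by role, in DMSO (left) and ibrutinib (right); the dashed line is the median of all genes. Of the 11 non-ATPase genes of the 19S particle, Psmd14 lies furthest left, at -0.50 and -0.86.

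The same comparison was made under ibrutinib. Again 0 of 49 genes passed the threshold, where 0% of all genes did, and 0 had an unadjusted p under 0.05, against 12.0% of all genes. Now 15 were higher and 34 lower in TCL1;p53R172H/+, with a median log2 difference of -0.06 beside -0.05 over all genes. Over the 10281 genes with a mean of at least 5 it was -0.03. Quantile normalization moved the median of all genes from -0.05 to 0.07 and that of the 49 genes to 0.05, and median centering of each library put the 49 genes at 0.04, so their direction as a group followed the scaling. The constitutive beta genes were lower in 7 of 7 cases (median -0.13) and the non-ATPase genes in 10 of 11 (median -0.03), while 5 of 7 chaperones and 4 of 6 activators and inhibitors were higher (medians 0.08 and 0.13).

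Catalytic genes overlapped between genotypes in ibrutinib too. Psmb5 was at 21.3, 10 and 15 in TCL1 replicates 1, 3 and 4 and at 10.2, 8.1, 11.1 and 11.8 in TCL1;p53R172H/+ replicates 1, 3, 4 and 5 (log2 difference -0.49 ± 0.28, limma adjusted p = 0.516). Psmb6 was at 41.6, 36.2 and 47.3 against 42.7, 33.5, 37.9 and 46.7 (-0.05 ± 0.18, adjusted p = 0.908), and Psmb7 at 26.0, 19.3 and 36.9 against 22.8, 21.0, 18.4 and 24.8 (-0.28 ± 0.24, adjusted p = 0.623). For each of the 3 genes the genotypes overlapped.

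For the immunoproteasome genes, TCL1;p53R172H/+ replicate 1, the library with the most T-cell marker reads, stood above the rest of its group. Psmb8 was at 63.3, 103.4 and 105.2 in TCL1 and at 154.7, 59.7, 52.2 and 88.5 in TCL1;p53R172H/+ (log2 difference -0.13 ± 0.40, limma adjusted p = 0.905). Psmb9 was at 27.6, 84.9 and 66.1 against 76.3, 38.1, 31.0 and 39.0 (-0.31 ± 0.45, adjusted p = 0.772), and Psmb10 at 26.7, 29.1 and 43.8 against 63.9, 25.9, 22.3 and 23.4 (-0.08 ± 0.39, adjusted p = 0.936). Of PA28, Psme1 was at 42.8, 65.5 and 80.8 against 141.8, 84.2, 56.5 and 73.5 (0.45 ± 0.35, adjusted p = 0.595), again highest in that library. Psme2 was at 3.2, 3.5 and 4.2 against 8.2, 4.4, 3.0 and 3.8, and Psme3 at 93.8, 36.4 and 42.6 against 49.9, 52.2, 47.1 and 41.6.

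The gene of lowest p was Psmd14, at 37.7, 103.0 and 107.9 in TCL1 and 31.8, 44.3, 58.1 and 34.0 in TCL1;p53R172H/+. Its log2 difference was -0.86 ± 0.40 (limma adjusted p = 0.447) and -1.35 ± 0.26 without TCL1 replicate 1 (adjusted p = 0.128, range over 16 alternatives 0.113 to 0.684). As in DMSO, replicates 3 and 4 of TCL1 were the highest and the TCL1 library rich in myeloid markers was among the others. The chaperone gene Psmg1 was at 5.6, 6.7 and 6.4 against 5.2, 4.5, 3.8 and 4.4 (-0.40 ± 0.21, adjusted p = 0.478), and Psmc1 at 26.4, 28.1 and 29.7 against 22.7, 22.3, 25.6 and 23.0 (-0.25 ± 0.14, adjusted p = 0.516). These were the 2 of 49 genes whose genotypes did not overlap downward (5.97% of all genes), and 0 did so upward (6.68%). Psmg2 (0.34 ± 0.22) and Psmc4 (0.27 ± 0.19) were again among the 3 higher genes of lowest p, with Psme1.

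Whether the genotype difference itself changed with ibrutinib was tested as an interaction, with all 15 libraries treated as independent. No gene passed the threshold (0% of 15869 genes did) and 0 of 49 had an unadjusted p under 0.05, against 0.523% of all genes. For 43 of 49 genes the difference was lower in ibrutinib than in DMSO, with a median of -0.22 beside -0.07 over all genes. Over the 10627 genes with a mean of at least 5 the median was -0.13. The median of all genes was -0.02 with quantile normalization and 0.06 with median centering of each library, so its sign changed with the scaling. The share of all genes with a lower difference is not given here. The lowest p-values were those of Psmc1 (-0.44 ± 0.27, limma adjusted p = 1) and Psmg1 (-0.54 ± 0.43, adjusted p = 1). Among the 6 genes with a positive term, Psme4 (0.21) and Psmc3ip (0.24) came first. With the replicate number as a block, 5.05% of all genes had an unadjusted p under 0.05. Of the 49, Psmb10 did (0.57 ± 0.22, limma adjusted p = 0.871). If libraries of the same number and genotype came from 1 animal, the fit without the block is less able to find a difference.

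The ratio of the 3 immunoproteasome genes to the 3 constitutive catalytic genes, taken on summed values within a library, does not depend on scaling between tables. It was not corrected for length and serves to compare libraries. In DMSO it was 1.23, 3.71 and 2.28 in TCL1 replicates 2, 3 and 4 and 4.49, 4.27, 1.89, 1.31 and 2.0 in TCL1;p53R172H/+ replicates 1 to 5. In ibrutinib it was 1.32, 3.32 and 2.17 in TCL1 replicates 1, 3 and 4 and 3.9, 1.98, 1.57 and 1.81 in TCL1;p53R172H/+ replicates 1, 3, 4 and 5. The ratio was lowest in the TCL1 library rich in myeloid markers of each table, and highest in the TCL1;p53R172H/+ libraries rich in T-cell markers. Libraries of the same number and genotype had similar summed ratios in both treatments, with TCL1 replicate 3 above replicate 4 and TCL1;p53R172H/+ replicate 1 above the rest each time. Single pairs differed more. Psmb10 over Psmb7 was 0.44, 0.61 and 0.52 in TCL1;p53R172H/+ replicates 3, 4 and 5 in DMSO and 1.23, 1.21 and 0.94 in ibrutinib. In TCL1 replicates 3 and 4 it was 1.40 and 1.28 against 1.51 and 1.19. Psmb8 over Psmb5 was 11.2, 4.88 and 9.40 in the same TCL1;p53R172H/+ libraries in DMSO and 7.37, 4.70 and 7.5 in ibrutinib.

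Between groups the mean log2 ratio differed little against its spread. It was 1.13 ± 0.80 (SD, n = 3) in TCL1 and 1.31 ± 0.78 (n = 5) in TCL1;p53R172H/+ in DMSO, and 1.08 ± 0.66 (n = 3) and 1.11 ± 0.58 (n = 4) in ibrutinib. The genotype difference of 0.19 in DMSO became -0.77 without the 5 libraries low in B-cell markers, and that of 0.03 in ibrutinib became -0.59. The difference between ibrutinib and DMSO was -0.04 in TCL1 and -0.20 in TCL1;p53R172H/+, both under 1 SD, and the latter was 0.06 without the 5 libraries. How far the T-cell and myeloid content set these ratios was not tested.

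**Figure D4:**
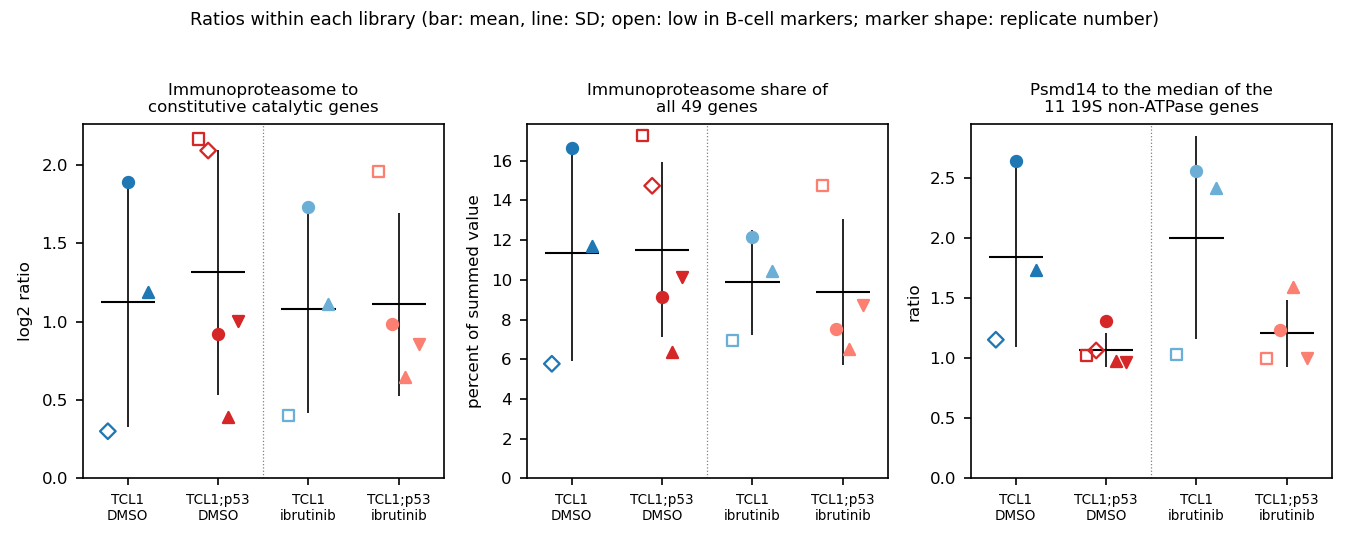
Within-library ratios by genotype and treatment, one marker per library (shape: replicate number, open: low in B-cell markers, bars: means, lines: SDs). Left, log2 ratio of immunoproteasome to constitutive catalytic genes; middle, percent of the summed value of the 49 genes held by the 3 immunoproteasome genes; right, Psmd14 over the median of the 11 non-ATPase genes, where TCL1 replicates 3 and 4 reach 2.64 and 1.74 in DMSO and 2.56 and 2.42 in ibrutinib.

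Psmd14 also stood apart from its own complex in the same 2 TCL1 libraries. Set against the median of the 11 non-ATPase genes, it was 2.64 and 1.74 times that median in TCL1 replicates 3 and 4 in DMSO and 2.56 and 2.42 times in ibrutinib. In the other 11 libraries the ratio was between 0.97 and 1.59. Psmd14 was picked for this ratio after its values were seen.

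Because the tables were scaled separately, values in ibrutinib and DMSO were set side by side only after subtracting, in each library, the median log2 value of 10073 reference genes with a mean of at least 5 in both tables. On this scale the median proteasome gene was lower in ibrutinib in both genotypes. It went from 0.63 ± 0.48 (SD, n = 3) to 0.30 ± 0.25 (n = 3) in TCL1 and from 0.80 ± 0.31 (n = 5) to 0.42 ± 0.04 (n = 4) in TCL1;p53R172H/+, a difference of -0.32 and -0.38. By gene, 42 of 49 means were lower in ibrutinib in TCL1, where 44.2% of reference genes were, and 42 of 49 in TCL1;p53R172H/+, where 47.1% were. Groups did not overlap downward for 3 of 49 genes in TCL1 (2.42% of reference genes) and for 8 in TCL1;p53R172H/+ (4.53%), and no test was made across the tables.

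Single libraries show where the levels differed. For the 14 constitutive 20S genes, the centered level was 0.92 and 1.02 in TCL1 replicates 3 and 4 and 1.07, 1.19 and 1.06 in TCL1;p53R172H/+ replicates 3, 4 and 5 in DMSO. In ibrutinib the libraries of the same numbers were at 0.24 and 0.44 and at 0.17, 0.27 and 0.24. These sets of 5, chosen after the data were seen, did not overlap, and how many other genes separate them in this way was not counted. B-cell marker sums of the same libraries were also lower in ibrutinib (2949.3, 3740.2 and 2873.3 in DMSO and 489.3, 1291.4 and 1098.4 in ibrutinib for TCL1;p53R172H/+ replicates 3, 4 and 5), and T-cell marker sums in these 3 were higher (241.8, 220.2 and 255.8 against 884.6, 472.2 and 682.9). In TCL1 replicates 3 and 4 the B-cell sums were 5471.0 and 3967.9 against 3165.0 and 2437.8, and the T-cell sums 235.3 and 482.7 against 167.8 and 480.6. Replicate 3 of TCL1;p53R172H/+ in ibrutinib also had a myeloid marker sum of 1157.7, and the part of other cell types in these levels was not tested. The DMSO libraries low in B-cell markers were at 0.21 (TCL1 replicate 2) and 0.47 and 0.46 (TCL1;p53R172H/+ replicates 1 and 2), close to the ibrutinib libraries TCL1 replicate 1 (0.24) and TCL1;p53R172H/+ replicate 1 (0.34). Thus, within DMSO, the 3 libraries low in B-cell markers lay below the other 5, whereas in ibrutinib the 2 such libraries lay among the rest. Without the 5 libraries, the difference over the 49 genes was -0.46 in TCL1 and -0.60 in TCL1;p53R172H/+.

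By role, for the 7 constitutive beta genes the mean difference between ibrutinib and DMSO was -0.42 in TCL1 and -0.71 in TCL1;p53R172H/+, and for the 7 alpha genes -0.41 and -0.40. It was -0.28 and -0.25 for the ATPase genes and -0.13 and -0.44 for the non-ATPase genes. The immunoproteasome genes differed by -0.27 and -0.48, beside SDs between libraries of 1.44 (DMSO) and 0.90 (ibrutinib) in TCL1 and of 0.46 and 0.51 in TCL1;p53R172H/+. Without the 5 libraries low in B-cell markers the differences in TCL1 and TCL1;p53R172H/+ were -0.64 and -1.03 for constitutive beta, -0.59 and -0.66 for alpha, -0.43 and -0.40 for ATPase, -0.25 and -0.56 for non-ATPase and -0.56 and -0.43 for immunoproteasome genes. Differences between these groups of genes were not tested. The share of mitochondrial transcripts also differed between the tables, reaching 25.7% in DMSO and 43.7% in ibrutinib, and its part in these levels was not tested.

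**Figure D5:**
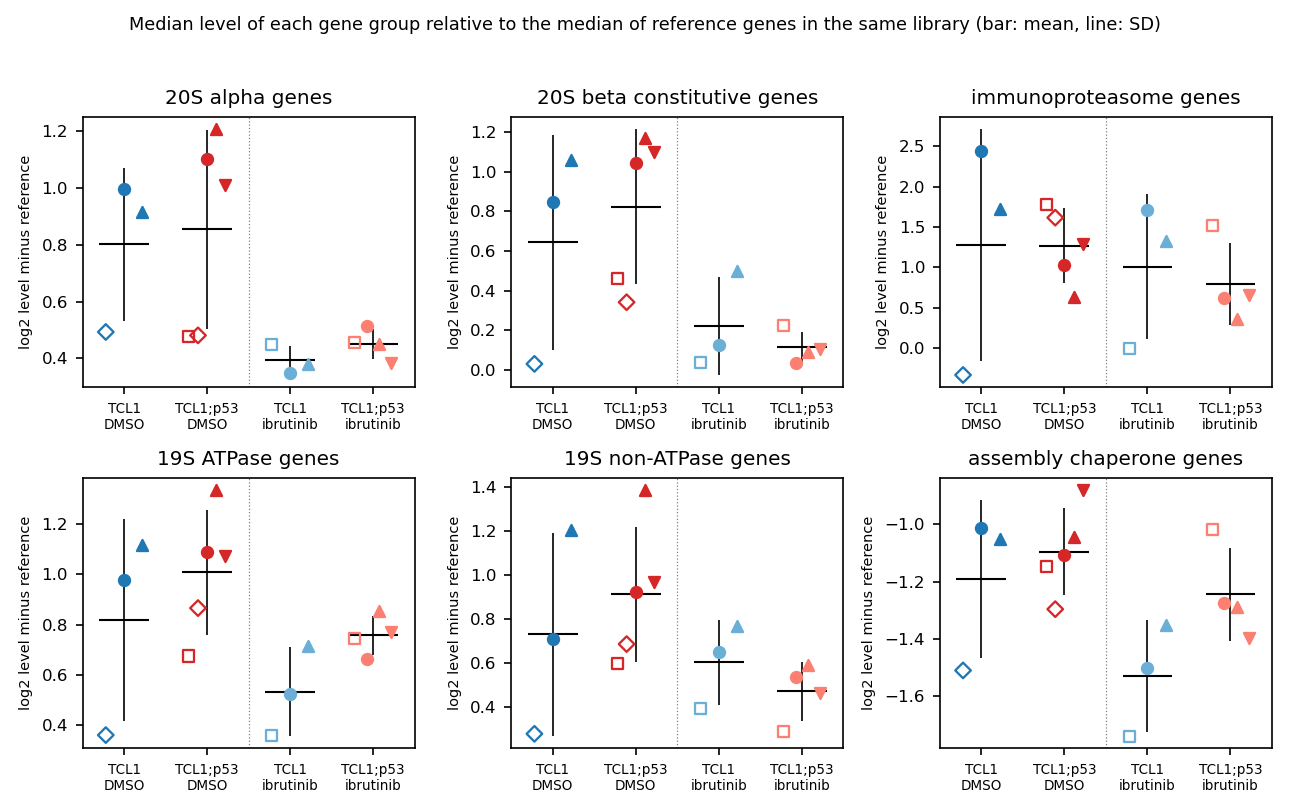
Median log2 level of each role's genes minus the median of the reference genes in the same library (vertical axes differ between panels), by genotype and treatment; open markers are the 5 libraries low in B-cell markers, bars are means and lines SDs. For alpha and constitutive beta genes the filled DMSO markers, a set chosen after the data were seen, lie above all ibrutinib markers.

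Genes that work beside the proteasome were examined from lists chosen for this purpose, and no gene of any list passed the threshold in either genotype comparison or the interaction. Of 8 other proteasome factors found, such as the chaperone Pomp and the deubiquitinases Usp14 and Uchl5, 4 were higher and 4 lower in TCL1;p53R172H/+ in DMSO and 2 and 6 in ibrutinib. In DMSO the largest difference in this list was that of the ubiquitin receptor gene Adrm1, 0.51 ± 0.23 (limma adjusted p = 0.623). Of 7 regulators of proteasome transcription, 5 were higher and 2 lower in TCL1;p53R172H/+ in DMSO and 3 and 4 in ibrutinib. The factor Nfe2l1, which drives these genes when proteasome activity falls, was at 104.8 to 171.1 in TCL1 and 68.0 to 251.2 in TCL1;p53R172H/+ in DMSO (-0.15 ± 0.48, limma adjusted p = 0.923). In ibrutinib it was at 98.9 to 310.1 and 46.4 to 184.5 (-0.90 ± 0.55, adjusted p = 0.539). Nfe2l2 was higher in DMSO (0.46 ± 0.37, adjusted p = 0.674) and in ibrutinib (0.36 ± 0.29, adjusted p = 0.612). Of 9 ubiquitin and shuttle genes, 7 were higher in DMSO and 4 in ibrutinib.

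The list of 10 genes for peptide loading on MHC class I split 5 and 5 in DMSO and 4 higher and 6 lower in ibrutinib. Tap1, which carries peptides into the endoplasmic reticulum, ran from 70.4 to 351.9 in TCL1 and from 103.8 to 333.4 in TCL1;p53R172H/+ in DMSO, so its genotypes overlapped as those of Psmb9 did. The 14 regulators and targets of interferon summed to 2581.6 and 2714.5 in the DMSO libraries rich in T-cell markers and to 505.1 to 1527.4 in the others. In ibrutinib they summed to 1591.4 in the T-cell-rich library and to 432.9 to 847.3 elsewhere. The highest interferon sums thus fell in the libraries highest in Psmb10 and Psme1. Psmb8 and Psmb9 were instead highest in TCL1 replicate 3 in DMSO (325.2 and 193.5). In ibrutinib Psmb9 was again highest in TCL1 replicate 3 (84.9), and Psmb8 in the T-cell-rich library (154.7). Of 7 genes of cycling cells, 6 were lower in TCL1;p53R172H/+ in both tables, with a median log2 difference of -1.22 in DMSO and -1.44 in ibrutinib, and their part in the proteasome values was not tested.

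Promoters from RefSeq (GRCm38.p6, 300 bases around the start) were found for 41 of the 49 genes. Searched on both strands, the letters TGANNNNGC, part of the antioxidant element bound by factors of the Nfe2l family, occurred in 56.8% of 44 member promoters and 41.3% of 32851 promoters in all. The interferon-type letters GAAANNGAA occurred in 15.9% and 8.56%, CCAAT in 31.8% and 37.4%, and TTCNNNGAA, the core of STAT sites, in 6.82% and 8.30%. The 3 members with TTCNNNGAA were Psmb8, Psmd2 and Psmg1. The 7 with GAAANNGAA were Psmb3, Psmb4, Psmc2, Psmd4, Psmd9, Psme1 and Psmg4, and Psmb8 and Psmb9 were not among them. A match is only a match of letters.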

How the data were processed

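RNA was sequenced from 15 libraries of cultured spleen cells labelled as B-cells, 8 in DMSO and 7 in ibrutinib. Per the labels and the methods, the authors aligned reads with TopHat2 2.0.12 to mm10, handled alignments with SAMtools 0.1.19, counted reads per gene with HTSeq and GENCODE M2, removed genes under a CPM of 0.5 and scaled counts with edgeR. The deposited values are thus a signal, read counts scaled to effective library size and rounded to 0.1, in 2 tables scaled separately. Raw counts and depth were not used here, so precision is that between libraries. Handling of reads that match several genes is not given in the sources used here.

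Groups came from sample titles. log2(value + 1) was fitted per table with limma 3.58.1 (trend, R 4.3.3) across all genes. P-values were adjusted by the Benjamini-Hochberg method and called under 0.05. The interaction was fitted over 15 libraries for 15869 genes in both tables. Levels were not tested between tables. No test is given for sums or ratios over members. The method was tested on simulated data. These had independent libraries with less spread than the real ones, so the run does not show which real changes would be missed. Positions and copies (BLAST+ 2.17.0, at least 95% identity over 100 bases) came from GENCODE M21 on GRCm38, and exon lengths are unions of exons, the annotation being newer than that of the authors.

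Named genes were the catalytic pairs, PA28 genes, the 3 members of lowest p per direction in each genotype comparison and 2 per direction for the interaction, and genes named otherwise are said to be so. Members and lists were chosen with earlier results of these data known. Alternatives were other pseudocounts (0.1, 5), genes with a mean of 5 or more, sample quality weights, quantile normalization, the replicate block, and each library or the libraries low in B-cell transcripts left out. The replicate numbers were checked for pairing. Median centering and the set without 5 libraries were chosen after seeing the data. Sequences of another pair of copies are not reported here.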

Additional observations from a re-analysis of the deposited data

Results flagged for a closer look

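In TCL1;p53R172H/+, 39 sets of 4 or 5 libraries were checked for a library far from the others by Dixon's criterion, which chance meets in about 1 of 20 sets, and 2 met it. Psmb10 in ibrutinib was at 63.9 in replicate 1, the library richest in T-cell markers, where the other 3 were at 22.3 to 25.9. Psma8 in DMSO was at 0.1 in replicate 4 and 0 in the other 4, a difference of 1 rounding step.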

How the results depend on the processing

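The count of proteasome genes past the threshold was 0 in both genotype comparisons and the interaction under every alternative run. The count with an unadjusted p under 0.05, 0 as reported in all 3, was 1 in DMSO with a pseudocount of 5 (7.85% of all genes), 6 with sample quality weights (25.2%), 4 without the 3 libraries low in B-cell transcripts and rich in T-cell markers (11.2%) and 7 without the 5 low in B-cell markers (17.1%). In ibrutinib it was 3 with the weights (17.8%) and 5 without the 5 (17.7%), and in the interaction 2 without either set (7.22% and 8.94%). Leaving out 1 library gave 0 to 2 in DMSO (TCL1 replicate 2 gave 1, where 8.82% of all genes did, and replicate 4 gave 2, where 7.17% did) and 0 to 1 in ibrutinib (TCL1 replicates 1 and 3 gave 1 each, where 15.9% and 10.2% did). The replicate numbers were not taken to pair all samples, since deviations of same-numbered libraries of 1 genotype correlated at 0.75 to 0.83 in 5 cases but at -0.11 for TCL1;p53R172H/+ replicate 3, and TCL1 replicate 2 in DMSO correlated with TCL1 replicate 1 in ibrutinib at 0.89. The replicate block gave 1 such gene in each of the 3 comparisons (5.89%, 9.07% and 5.05% of all genes), in the interaction Psmb10, whose term was 0.57 with the block (limma adjusted p = 0.871) and -0.08 without. In the genotype comparisons the block joined libraries of the same number across genotypes. Deviations of these correlated at -0.19 to 0.28, so the block is a weak check there. Without the 5 libraries the immunoproteasome median in DMSO was -1.10, and the genotype difference in the log2 ratio was -0.77 in DMSO and -0.59 in ibrutinib. Of 572 values of 33 gene results, 507 kept their direction and 65 reversed, and the cause was not tested. With median centring, reversed log2 differences were -0.0088 for Psmb9 and -0.027 for Psmb10 in DMSO, and 0.042 for Psmb6 and 0.013 for Psmb10 in ibrutinib. With a pseudocount of 5, reversed log2 differences were -0.0051 for Psmb9 and -0.00074 for Psmb10 in DMSO. With quantile normalization, reversed log2 differences were -0.051 for Psmb9 and -0.074 for Psmb10 in DMSO, and 0.021 for Psmb8, 0.059 for Psmb6 and 0.027 for Psmb10 in ibrutinib. With the replicate block, reversed log2 differences were -0.16 for Psmb9 and -0.14 for Psmb10 in DMSO, and 0.041 for Psmb10 in ibrutinib. With quality weights, reversed log2 differences were -0.090 for Psmb8, -0.10 for Psmb6, -0.69 for Psmb9, -0.99 for Psmb10, -0.25 for Psme1 and -0.36 for Psme2 in DMSO, and 0.18 for Psme3 in ibrutinib. Without the 5 libraries low in B-cell marker genes, reversed log2 differences were 0.0073 for Psmb5, -0.44 for Psmb8, -0.072 for Psmb6, -1.10 for Psmb9, -1.18 for Psmb10, -0.50 for Psme1, -0.41 for Psme2 and 0.046 for Psma8 in DMSO, and -0.046 for Psme1, -0.042 for Psme2 and 0.24 for Psme3 in ibrutinib. Without the libraries low in B-cell transcripts, reversed log2 differences were 0.15 for Psmb5, -0.28 for Psmb9 and -0.63 for Psmb10 in DMSO, and -0.12 for Psmc3ip in the interaction. Leaving out 1 library at a time gave log2 differences in DMSO from -0.32 to 0.025 for Psmb5, -0.30 to 0.89 for Psmb8, -0.25 to 0.24 for Psmb6, -0.81 to 0.63 for Psmb9, -0.20 to 0.32 for Psmb7, -0.54 to 0.32 for Psmb10, -0.096 to 0.87 for Psme1, -0.14 to 0.55 for Psme2, -0.10 to 0.25 for Psme3 and -0.63 to 0.028 for Psma8. Leaving out 1 library at a time gave log2 differences in ibrutinib from -0.43 to 0.082 for Psmb8, -0.15 to 0.039 for Psmb6, -0.78 to 0.018 for Psmb9, -0.43 to 0.13 for Psmb10 and -0.41 to 0.27 for Psme3. Leaving out 1 library at a time gave log2 differences in the interaction from -0.18 to 0.66 for Psmc3ip.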

Other observations

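Psmd5, a chaperone of the ATPase ring, was at 108.5 and 112.0 in TCL1;p53R172H/+ replicates 3 and 5 in DMSO against 36.7 to 50.9 in the other 6 libraries, and at 66.2 in replicate 5 against 31.3 to 41.8 in ibrutinib. It was picked after its values were seen and was not tested apart from the fit across all genes (adjusted p = 0.704 in DMSO and 0.886 in ibrutinib, limma).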
